A study of Mus musculus with 20 samples.

Results

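Sterol and fatty acid synthesis genes were followed through 20 RNA-seq libraries of mouse neurospheres, the free-floating clusters that neural stem and progenitor cells form in culture. The 33 genes were taken by symbol out of 36724 in the deposited table, and each matched 1 row. They comprise 8 enzymes of the mevalonate and isoprenoid steps, 11 enzymes from squalene to cholesterol, 6 regulators and sterol carriers, and 8 enzymes of fatty acid synthesis and desaturation. Spheres were grown from the subventricular zone (SVZ) or the hippocampus of C57BL/6 mice 8 to 12 weeks old, either Egfl7 knockout or wild type. Egfl7 encodes a secreted protein known from blood vessels. SVZ spheres were collected on culture day 3, as 3 knockout and 3 wild-type libraries. Hippocampal spheres were collected on day 5 in 2 sets, one labelled spheres1 (HC1 here, 3 knockout and 3 wild-type libraries) and one labelled spheres2 (HC2, 4 and 4). The SVZ spheres also carry the label spheres1. All cultures received EGF and FGF at 20 ng/ml, and each library carries the number of 1 mouse. All donors were male except the 3 HC1 wild types, which were female, so sex and genotype cannot be told apart in HC1. The sources used here do not say how the Egfl7 allele was made.

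Cells build cholesterol from acetyl-CoA through mevalonate, isoprenoid diphosphates, squalene and a series of sterols. The genes of this route share a control: SREBP transcription factors, made from Srebf1 and Srebf2, are carried by the escort protein Scap from the endoplasmic reticulum to the Golgi when membrane sterol is low, and Insig1 and Insig2 hold them back when it is high. SREBP binds sterol regulatory elements in promoters, often beside a box for the factor NF-Y. Neural progenitors need membrane lipid to divide, and in adult brain astrocytes are a main source of cholesterol.

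Expression was given as RPKM, read counts scaled by gene length and by library size. The libraries were captured with exon baits and the gene lengths used are not given, so levels of different genes compare only roughly. All 33 genes passed the filter on low values, and every one was present in every library, from 10.5 to 2210 RPKM. The libraries differed in depth by set: an estimated 11900000 to 13800000 reads in the SVZ, 11600000 to 12900000 in HC1 and 17700000 to 28700000 in HC2, with RPKM sums of 690229 to 727243, 686424 to 721483 and 756349 to 876687. The check of the labels by Egfl7 failed in the SVZ. There the gene read 0.094, 2.86 and 0 RPKM in the libraries labelled knockout 1, 2 and 3, and 1.73, 2.99 and 0 in those labelled wild type 1, 2 and 3. In HC1 and HC2 it was at 0 in all 7 knockouts and at 0.566 to 1.59 RPKM in the 7 wild types. The library labelled SVZ knockout 2 and the one labelled SVZ wild type 3 therefore go against their labels, and SVZ results are given with and without them where they change. The 12 neural stem and progenitor markers were all detected, with Sox2 at 72.1 RPKM or more and Nes at 59.1 or more. Most markers of blood vessel, microglial and pericyte cells were near 0 (2 of 9, 1 of 9 and 2 of 8 passed the filter, and Cx3cr1, C1qa and Tyrobp were at 0 in all libraries). The exceptions included Acta2, at up to 31.5 RPKM, and Flt1, at up to 6.70.

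The promoters of 26 of the 33 genes were found in RefSeq's windows (GRCm38.p6). The 250 bases before the start were searched on both strands for TCACNCCAC, a core of the sterol regulatory element, and for CCAAT, the NF-Y box. The first was in 1 of the 26 genes (3.85%), Hmgcs1, and in 1.22% of all 27025 genes. The second was in 20 of the 26 (76.9%) and in 37.5% of all genes. A gene with several windows was counted if any of them held the motif, and some windows lie inside the gene. The only Acaca window begins at chr11:84195188, and the gene spans from 84129677. The NF-Y boxes of Dhcr7 lie in a window that begins at chr7:143829964, and that gene spans from 143823167. The bases directly before the start that lie in no annotated exon are printed for 4 genes, lower case with matches to either motif in capitals. Hmgcs1 holds both motifs (chr13:119690201-119690350, plus strand), Mvd (chr8:122443423-122443572, minus strand) and Nsdhl (chrX:72918412-72918520, plus strand) hold the NF-Y box alone, and Scap (chr9:110333138-110333287, plus strand), one of 6 genes with neither, is shown for contrast. The other 5 with neither were Acly, Acaca, Acat2 and Elovl6, which were higher in SVZ than in HC2 spheres, and Fads2, which was lower. Scap and Ggps1 were both lower in SVZ than in HC2, and Ggps1 holds 3 NF-Y boxes.
Hmgcs1: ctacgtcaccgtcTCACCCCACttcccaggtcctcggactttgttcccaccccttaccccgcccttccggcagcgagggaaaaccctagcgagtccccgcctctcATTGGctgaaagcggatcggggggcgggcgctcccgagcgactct
Mvd: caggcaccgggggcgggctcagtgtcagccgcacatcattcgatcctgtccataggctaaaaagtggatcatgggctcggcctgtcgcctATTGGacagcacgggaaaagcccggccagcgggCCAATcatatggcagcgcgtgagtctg
Nsdhl: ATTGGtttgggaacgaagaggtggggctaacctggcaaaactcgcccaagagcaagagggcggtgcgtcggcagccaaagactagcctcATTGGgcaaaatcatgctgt
Scap: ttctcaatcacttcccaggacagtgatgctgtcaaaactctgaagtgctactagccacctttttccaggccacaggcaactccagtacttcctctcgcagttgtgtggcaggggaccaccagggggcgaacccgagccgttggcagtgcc
These matches describe letters in a window and not binding. In Mvd, 1 match reads CCAAT and the other its reverse complement ATTGG, and both matches in Nsdhl read ATTGG.

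**Figure D1:**
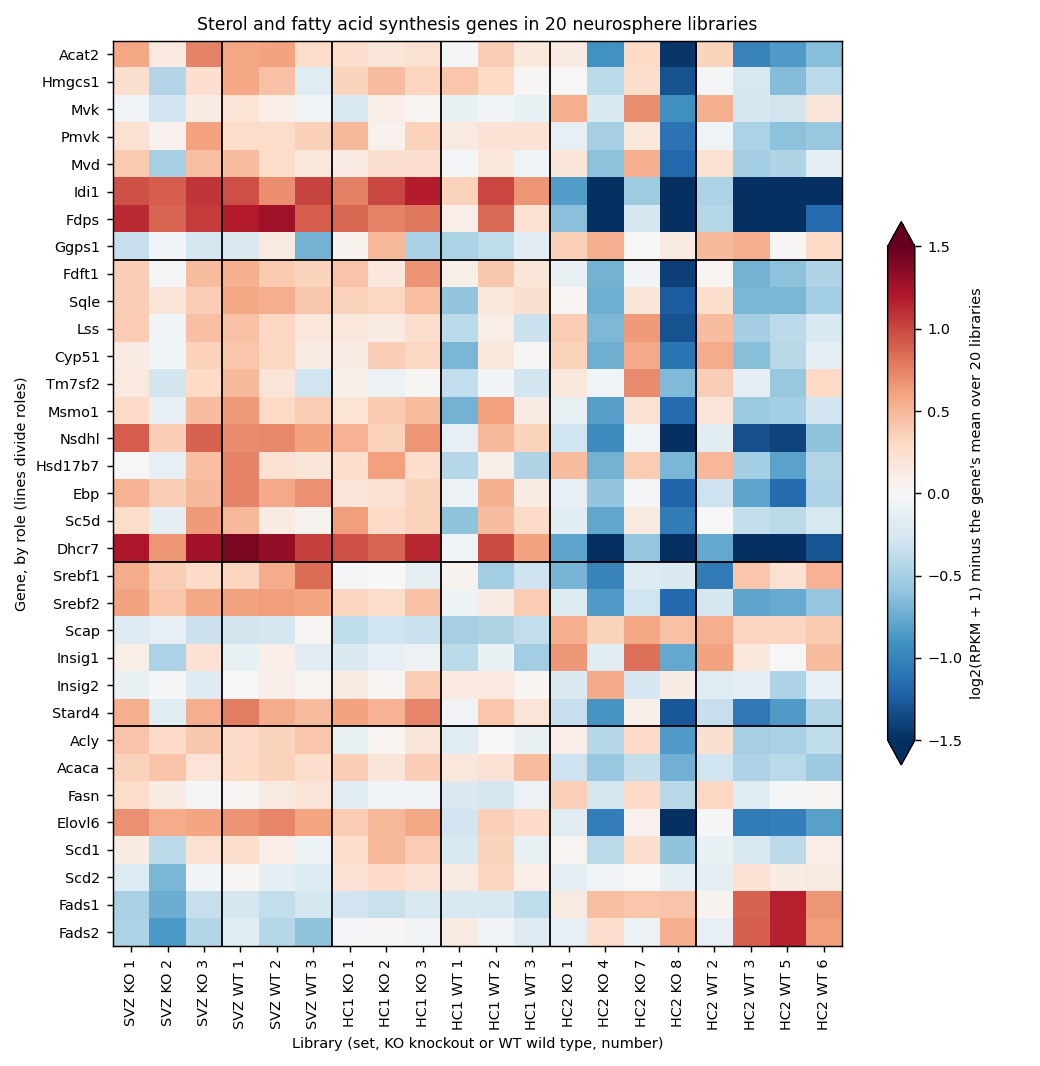
Heat map of log2(RPKM + 1) minus each gene's mean over the 20 libraries, with genes in rows by role and libraries in columns by set and genotype. Idi1, Fdps and Dhcr7 are blue in all 8 HC2 libraries, Scap and Fads1 are red there, and HC2 knockout 8 is blue across most sterol rows.

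HC2 spheres differed from SVZ and HC1 spheres in these genes far more than the genotypes did. Idi1, Fdps and Dhcr7 were 3.29 to 5.61 times as abundant in SVZ and HC1 spheres as in HC2 spheres (ratios of mean RPKM), with no overlap between HC2 and any other library. Srebf2 and Acaca were also lower in all 8 HC2 libraries than in all 12 others, while Scap and Fads1 were higher in all 8. These 7 genes are 21.2% of the 33, 5 of them lower (15.2%) and 2 higher (6.06%). Among all 16403 genes tested, 19.3% separated HC2 from the other libraries in this way, 12.3% lower and 6.96% higher. For single pairs of sets the share of all genes without overlap is not given here. No excess can therefore be read from the genes described below as not overlapping between such pairs.

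Over both genotypes, 22 of the 33 genes differed between SVZ and HC2 (adjusted p under 0.05), which is 66.7%. All genes tested gave 67.2%, so the number called is no more than the background. The direction was uneven: 18 genes (54.5%) were higher in SVZ, against 34.7% of all genes, and 4 (12.1%) lower, against 32.6%. The median log2 difference was 0.60 over the 33 genes and 0.0015 over all genes. Region, culture day and sphere set differ together here and cannot be told apart. Between the hippocampal sets, compared in male knockouts of the same day, 17 of 33 differed (51.5%, against 38.3% of all genes), 15 of them lower in HC2 (45.5%, against 22.3%) and 2 higher (6.06%, against 16.1%). The median was -0.56 over the 33 genes and -0.05 over all genes. Without HC2 knockout 8 the number was 11 of 33, where 34.7% of all genes differed. Both contrasts use the HC2 knockouts. Between SVZ and HC1 knockouts, 1 of 33 differed (3.03%, against 7.06% of all genes), lower in SVZ (4.43% of all genes), and the median was -0.0046.

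Other features moved with the sets. The mean log2(RPKM + 1) of 31 DNA replication and mitosis genes, called the cell cycle list here, was 6.64 to 6.80 in the SVZ, 4.67 to 6.07 in HC1 and 1.58 to 5.89 in HC2, and all 31 were higher in SVZ than in HC2 by the same test. The mean of the 8 astrocyte markers ran mostly the other way, at 4.77 to 5.92, 6.27 to 7.68 and 5.85 to 8.58. Of the 8, 7 passed as lower in SVZ than in HC2 (32.6% of all genes did) and 0 as higher. S100b, one of the 7, averaged 6.87 and 7.55 RPKM in the SVZ groups and 71.1 and 80.3 in the HC2 groups. Aldh1l1, which did not pass, averaged 386 and 430 RPKM in the SVZ groups and 366 and 374 in the HC2 groups. Of the markers of mature oligodendrocytes, 6 of 11 were lower in HC2 than in HC1 knockouts (22.3% of all genes were) and 0 higher (16.1%). The median was -1.19, and the means of the list were 1.54 to 1.67 and 2.34 to 2.85. The precursor marker Sox10 was lower in HC2 too (-2.80 ± 0.48, adjusted p = 0.000217), and Olig1 was higher (1.503 ± 0.27). Between SVZ and HC2, 2 of the 11 mature oligodendrocyte markers were higher in SVZ and 1 lower. Of 8 precursor markers 1 was higher and 4 lower, and of 10 neuron markers 3 were higher and 2 lower. Of the 12 neural stem and progenitor markers 3 were higher, among them Nes (1.79 ± 0.28), and 6 lower, among them Sox2 (-1.53 ± 0.15). Of all genes 34.7% were higher and 32.6% lower. Low markers of other cells also differed, with Acta2 (2.89 ± 0.35), Flt1 (1.75 ± 0.20), Itgam (1.60 ± 0.11) and Kdr (0.37 ± 0.12) higher in SVZ than in HC2. The summed RPKM of the 9 blood vessel markers was 4.10 to 8.46 in the SVZ, 1.59 to 2.78 in HC1 and 0.706 to 2.31 in HC2. That of the 9 microglial markers was 1.68 to 3.67, 1.06 to 2.01 and 0.064 to 0.577, and that of the 8 pericyte and fibroblast markers 7.75 to 32.1, 3.18 to 16.5 and 0.572 to 4.35. The part of these marker lists in the set differences was not tested. In bulk libraries, fewer cells of a type and less RNA per cell cannot be told apart. With the cell cycle mean as a covariate, 13 of the 33 genes differed between SVZ and HC2, where 42.1% of all genes did. Of the 13, 7 were higher in SVZ and 6 lower, and the median of the 33 was -0.09. SVZ and HC2 do not overlap in that mean. With the same covariate 15 of 33 differed between the hippocampal knockouts, where 40.5% of all genes did. Of the 15, 12 were lower in HC2 and 3 higher.

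Of the mevalonate and isoprenoid enzymes, 5 of 8 were higher in SVZ than in HC2 and 1 was lower, and 3 of 8 were lower in HC2 than in HC1. The shares of all genes were 34.7%, 32.6% and 22.3%. Hmgcs1, the synthase that joins acetyl-CoA to acetoacetyl-CoA, had the highest RPKM of them. Hmgcs1 was at 1394, 869 and 1411 RPKM in the SVZ knockouts and 1773, 1611 and 1040.3 in the SVZ wild types, and at 1498, 1631 and 1481 in the HC1 knockouts and 1586, 1457 and 1202 in the HC1 wild types. In HC2, Hmgcs1 was at 1188, 898, 1427 and 479 RPKM in knockout and 1165, 1001, 752 and 896 in wild-type libraries. HC2 knockout 8 had the lowest level, and the HC2 range reached into those of SVZ and HC1. Its difference between SVZ and HC2 was close to the threshold (0.49 ± 0.21, adjusted p = 0.0462). Acat2 was at 185, 137 and 207 RPKM in the SVZ knockouts and 186, 188 and 150.1 in the SVZ wild types, and at 149, 140.4 and 146 in the HC1 knockouts and 122, 159.9 and 138 in the HC1 wild types. In HC2, Acat2 was at 135, 65.7, 152 and 44.6 RPKM in knockout and 156, 61.3, 68.2 and 79.2 in wild-type libraries. Acat2 supplies the acetoacetyl-CoA that Hmgcs1 uses, and was higher in SVZ than in HC2 (1.00 ± 0.25, adjusted p = 0.00217). HC2 knockouts 1 and 7 and wild type 2 lay within the HC1 range, and the other 5 HC2 libraries lay below it.

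The kinases Mvk and Pmvk and the decarboxylase Mvd turn mevalonate into isopentenyl diphosphate. Mvk was at 71.9, 60.3 and 80.4 RPKM in the SVZ knockouts and 85.5, 79.4 and 71.1 in the SVZ wild types, and at 62.96, 79.00 and 76.1 in the HC1 knockouts and 69.03, 71.6 and 68.4 in the HC1 wild types. In HC2, Mvk was at 108, 62.9, 120.1 and 38.4 RPKM in knockout and 107, 61.5, 60.9 and 83.9 in wild-type libraries. Mvk did not pass in any set comparison, and its SVZ and HC1 values lay within the HC2 range. Pmvk was at 109, 96.5 and 142 RPKM in the SVZ knockouts and 112, 112 and 118 in the SVZ wild types, and at 131, 97.1 and 118 in the HC1 knockouts and 102, 108 and 108 in the HC1 wild types. In HC2, Pmvk was at 85.03, 65.4, 104 and 42.4 RPKM in knockout and 88.2, 66.6, 60.00 and 62.1 in wild-type libraries. Pmvk was higher in SVZ (0.71 ± 0.16, adjusted p = 8.10e-04) and lower in the HC2 than the HC1 knockouts (-0.69 ± 0.22, adjusted p = 0.0211). Mvd was at 112, 60.2 and 117 RPKM in the SVZ knockouts and 117, 103 and 96.1 in the SVZ wild types, and at 92.7, 101 and 102 in the HC1 knockouts and 84.2, 95.2 and 81.3 in the HC1 wild types. In HC2, Mvd was at 97.04, 55.1, 125 and 37.03 RPKM in knockout and 99.9, 59.5, 62.3 and 77.4 in wild-type libraries. The SVZ minus HC2 difference of Mvd did not pass (0.45 ± 0.23, adjusted p = 0.0862).

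Idi1 isomerises isopentenyl diphosphate, and Fdps joins such units into farnesyl diphosphate, the branch point between sterols and other isoprenoids. Idi1 was at 118, 114 and 128 RPKM in the SVZ knockouts and 118, 97.9 and 122 in the SVZ wild types, and at 102, 121 and 137 in the HC1 knockouts and 76.5, 122 and 95.9 in the HC1 wild types. In HC2, Idi1 was at 33.1, 20.3, 41.2 and 12.5 RPKM in knockout and 42.99, 20.2, 15.03 and 19.9 in wild-type libraries. Its highest HC2 library, wild type 2, lay below its lowest library elsewhere, HC1 wild type 1. The log2 difference was 2.25 ± 0.24, adjusted p = 4.01e-07, for SVZ minus HC2, and -2.24 ± 0.34, adjusted p = 5.61e-05, for HC2 minus HC1. Fdps was at 275, 231 and 262 RPKM in the SVZ knockouts and 287, 305 and 236 in the SVZ wild types, and at 229, 211 and 218 in the HC1 knockouts and 135, 227 and 148 in the HC1 wild types. In HC2, Fdps was at 81.2, 37.6, 106 and 22.00 RPKM in knockout and 93.1, 39.7, 37.6 and 56.1 in wild-type libraries. Fdps showed the same separation, with SVZ minus HC2 at 2.32 ± 0.29, adjusted p = 2.40e-06, and HC2 minus HC1 at -2.06 ± 0.40, adjusted p = 6.77e-04. HC2 wild type 2 and HC1 knockout 1 had nearly the same cell cycle mean (5.89 and 5.88) but differ in genotype. In the first and the second, Idi1 was at 43.0 and 102 RPKM and Fdps at 93.1 and 229. In the same 2 libraries Acat2 was at 156 and 149 RPKM and Sqle at 223 and 236. HC2 knockout 1 and HC1 knockout 2 shared both the genotype and a cell cycle mean of 5.565. In that order, Idi1 was at 33.1 and 121 RPKM, Fdps at 81.2 and 211, Acat2 at 135 and 140.4, and Sqle at 189 and 231. The part of the cell cycle in these set differences was not tested. With the cell cycle covariate, SVZ minus HC2 was 1.15 ± 0.18 for Idi1 and 1.07 ± 0.26 for Fdps (limma, adjusted p = 7.21e-05 and 0.00287). SVZ and HC2 do not overlap in that covariate. Ggps1, which makes geranylgeranyl diphosphate for protein prenylation, was the only enzyme of the 8 that passed in the other direction. Ggps1 was at 19.6, 24.4 and 20.8 RPKM in the SVZ knockouts and 21.5, 27.7 and 14.97 in the SVZ wild types, and at 26.1, 35.8 and 17.6 in the HC1 knockouts and 17.8, 19.02 and 22.4 in the HC1 wild types. In HC2, Ggps1 was at 32.4, 36.6, 24.9 and 27.6 RPKM in knockout and 35.6, 37.1, 25.4 and 30.96 in wild-type libraries. It was lower in SVZ than in HC2 (-0.53 ± 0.15, adjusted p = 0.00595), and the groups overlapped.

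**Figure D2:**
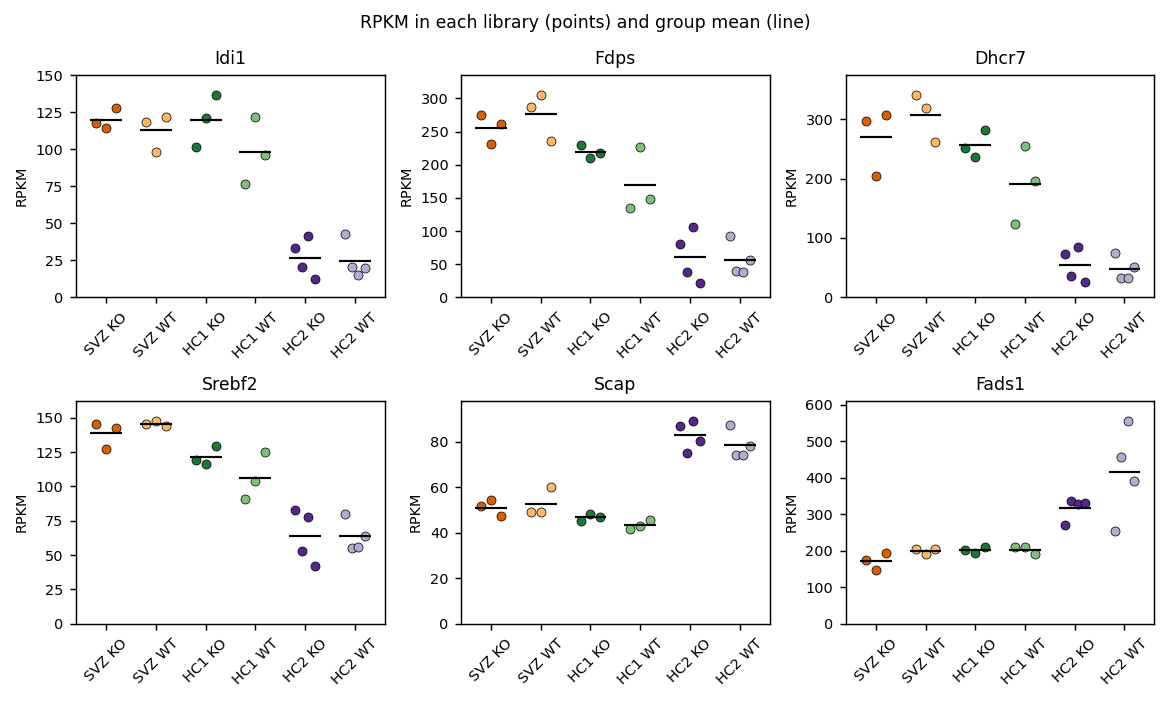
RPKM of Idi1, Fdps, Dhcr7, Srebf2, Scap and Fads1 (linear axes from 0), with each point a library and each line a group mean. For all 6 genes the 8 HC2 libraries lie apart from the 12 SVZ and HC1 libraries, below them for the first 4 and above them for Scap and Fads1.

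All 11 sterol enzymes had higher means in SVZ than in HC2, and 7 of them passed, where 34.7% of all genes passed as higher. In the hippocampal knockouts 10 of 11 were lower in HC2, and 7 passed, where 22.3% of all genes passed as lower. Fdft1 was at 182, 138 and 196 RPKM in the SVZ knockouts and 204, 186 and 178 in the SVZ wild types, and at 190.5, 157 and 225 in the HC1 knockouts and 149.7, 187 and 160.1 in the HC1 wild types. In HC2, Fdft1 was at 130.1, 86.1, 137 and 52.7 RPKM in knockout and 145, 86.2, 91.4 and 103 in wild-type libraries. Fdft1, the squalene synthase, was higher in SVZ than HC2 (0.85 ± 0.18, adjusted p = 6.70e-04) and lower in HC2 than HC1 (-0.99 ± 0.26, adjusted p = 0.00625). Sqle was at 240.1, 212 and 239 RPKM in the SVZ knockouts and 277, 271 and 246 in the SVZ wild types, and at 236, 231 and 254 in the HC1 knockouts and 122, 208 and 219 in the HC1 wild types. In HC2, Sqle was at 189, 111, 209.9 and 77.7 RPKM in knockout and 223, 115, 115 and 130.5 in wild-type libraries. Sqle, the squalene epoxidase and a rate-limiting enzyme of the route, differed in the same 2 comparisons (0.83 ± 0.21, adjusted p = 0.00212, and -0.81 ± 0.30, adjusted p = 0.0374). HC1 wild type 1 was low for Sqle, at a level like those of the lower HC2 libraries.

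Lss closes squalene epoxide to lanosterol, and Cyp51, Tm7sf2, Msmo1, Nsdhl and Hsd17b7 then remove methyl groups and reduce bonds. Lss was at 142, 105 and 149 RPKM in the SVZ knockouts and 148, 135 and 122 in the SVZ wild types, and at 122, 118 and 131 in the HC1 knockouts and 82.2, 117 and 87.1 in the HC1 wild types. In HC2, Lss was at 142, 67.8, 169.9 and 43.5 RPKM in knockout and 151, 76.3, 82.8 and 92.9 in wild-type libraries. Lss did not pass between sets (0.48 ± 0.25, adjusted p = 0.0926, for SVZ minus HC2). Cyp51 was at 206, 183 and 240.1 RPKM in the SVZ knockouts and 253, 235 and 204 in the SVZ wild types, and at 203, 244 and 233 in the HC1 knockouts and 116.5, 211 and 191 in the HC1 wild types. In HC2, Cyp51 was at 240.0, 113, 281 and 87.5 RPKM in knockout and 278, 121, 141 and 171 in wild-type libraries. Cyp51 in HC2 knockout 7 and wild type 2 was above every SVZ and HC1 library, and its set differences did not pass (0.41 ± 0.25, adjusted p = 0.154). Tm7sf2 was at 69.9, 51.97 and 78.1 RPKM in the SVZ knockouts and 88.98, 72.5 and 51.3 in the SVZ wild types, and at 66.4, 59.3 and 63.9 in the HC1 knockouts and 48.8, 61.2 and 51.7 in the HC1 wild types. In HC2, Tm7sf2 was at 70.3, 61.1, 104 and 39.7 RPKM in knockout and 81.8, 57.2, 42.2 and 78.03 in wild-type libraries. The Tm7sf2 groups overlapped throughout (0.08 ± 0.19, adjusted p = 0.732). Msmo1 was at 241, 181 and 273 RPKM in the SVZ knockouts and 306, 243 and 255 in the SVZ wild types, and at 227, 258 and 273 in the HC1 knockouts and 120.0, 301 and 213 in the HC1 wild types. In HC2, Msmo1 was at 182, 111, 231 and 87.7 RPKM in knockout and 225, 134, 138 and 161 in wild-type libraries. Msmo1 passed in both comparisons, the second just under the threshold (0.70 ± 0.22, adjusted p = 0.0101, and -0.82 ± 0.31, adjusted p = 0.0482). Hsd17b7 was at 22.3, 20.6 and 31.2 RPKM in the SVZ knockouts and 38.3, 26.5 and 25.6 in the SVZ wild types, and at 27.2, 34.9 and 27.3 in the HC1 knockouts and 16.5, 23.7 and 16.1 in the HC1 wild types. In HC2, Hsd17b7 was at 31.7, 13.3, 29.5 and 13.6 RPKM in knockout and 32.1, 15.5, 12.5 and 16.3 in wild-type libraries. Hsd17b7 was high in HC2 knockouts 1 and 7 and wild type 2 and low in the other 5 HC2 libraries, and its set difference did not pass (0.47 ± 0.23, adjusted p = 0.0759).

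Nsdhl, which removes a carboxyl group from the sterol ring, had the second largest set difference among the sterol enzymes. Nsdhl was at 209.7, 145 and 207 RPKM in the SVZ knockouts and 183, 185 and 169 in the SVZ wild types, and at 159.8, 142 and 177 in the HC1 knockouts and 102, 156 and 141 in the HC1 wild types. In HC2, Nsdhl was at 90.7, 57.6, 107 and 34.3 RPKM in knockout and 99.6, 44.03, 41.95 and 73.01 in wild-type libraries. All SVZ libraries were above all HC2 libraries (1.51 ± 0.23, adjusted p = 2.88e-05), and HC2 knockouts were below HC1 knockouts (-1.25 ± 0.33, adjusted p = 0.00669). Ebp was at 44.6, 40.2 and 43.7 RPKM in the SVZ knockouts and 52.7, 46.3 and 50.2 in the SVZ wild types, and at 35.5, 36.1 and 39.1 in the HC1 knockouts and 29.1, 45.2 and 33.5 in the HC1 wild types. In HC2, Ebp was at 28.3, 20.2, 30.4 and 12.9 RPKM in knockout and 24.8, 17.5, 13.3 and 21.9 in wild-type libraries. Ebp, a sterol isomerase, did not overlap between SVZ and HC2 either (1.15 ± 0.17, adjusted p = 1.29e-05). Sc5d was at 120.2, 90.9 and 155 RPKM in the SVZ knockouts and 141, 108 and 103 in the SVZ wild types, and at 154, 122 and 126 in the HC1 knockouts and 65.3, 137 and 122 in the HC1 wild types. In HC2, Sc5d was at 88.1, 57.8, 109.8 and 47.6 RPKM in knockout and 99.4, 77.7, 75.04 and 84.3 in wild-type libraries. The desaturase Sc5d passed in both comparisons (0.60 ± 0.19, adjusted p = 0.0123, and -0.88 ± 0.28, adjusted p = 0.0178), with overlap between SVZ and HC2.

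Dhcr7 reduces the last double bond on the way to cholesterol. Dhcr7 was at 298, 204 and 307 RPKM in the SVZ knockouts and 341, 319 and 262 in the SVZ wild types, and at 251, 236 and 281 in the HC1 knockouts and 124, 254 and 195 in the HC1 wild types. In HC2, Dhcr7 was at 73.3, 35.2, 85.3 and 25.9 RPKM in knockout and 75.05, 31.96, 33.4 and 51.8 in wild-type libraries. Every HC2 library was below every other library, and HC1 wild type 1 was the lowest outside HC2. The SVZ minus HC2 difference, 2.57 ± 0.26, adjusted p = 2.56e-07, and the HC2 minus HC1 difference, -2.36 ± 0.37, adjusted p = 8.52e-05, were the largest of the 33 genes. With the cell cycle covariate the Dhcr7 difference was 1.44 ± 0.23 for SVZ minus HC2 (adjusted p = 0.000114). For HC2 minus HC1 knockouts it was -1.85 ± 0.22 (adjusted p = 4.27e-06).

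The regulators did not move as a block. Srebf2 was at 146, 127 and 143 RPKM in the SVZ knockouts and 146, 148 and 144 in the SVZ wild types, and at 119.5, 116.2 and 129.8 in the HC1 knockouts and 90.6, 104 and 125 in the HC1 wild types. In HC2, Srebf2 was at 82.5, 52.7, 77.8 and 42.1 RPKM in knockout and 80.2, 54.9, 56.2 and 63.8 in wild-type libraries. Srebf2, whose product acts mainly on sterol genes, was lower in every HC2 library than in every other (1.18 ± 0.13, adjusted p = 8.32e-07, and -0.97 ± 0.19, adjusted p = 5.91e-04). Srebf1 was at 133, 117 and 111 RPKM in the SVZ knockouts and 113, 133 and 162 in the SVZ wild types, and at 89.1, 89.98 and 81.9 in the HC1 knockouts and 93.7, 62.3 and 72.2 in the HC1 wild types. In HC2, Srebf1 was at 55.2, 44.4, 78.95 and 77.2 RPKM in knockout and 43.1, 120.3, 105 and 130.1 in wild-type libraries. Srebf1, whose product acts mainly on fatty acid genes, was higher in SVZ than HC2 (0.74 ± 0.21, adjusted p = 0.0049), and HC2 wild types 3 and 6 lay within the SVZ range. Scap was at 51.5, 54.2 and 47.1 RPKM in the SVZ knockouts and 48.9, 49.1 and 59.9 in the SVZ wild types, and at 45.3, 48.1 and 46.7 in the HC1 knockouts and 41.6, 43.03 and 45.5 in the HC1 wild types. In HC2, Scap was at 86.7, 74.8, 88.97 and 80.4 RPKM in knockout and 87.1, 74.1, 74.3 and 78.1 in wild-type libraries. Scap had narrow groups and was higher in all HC2 libraries. Its SVZ minus HC2 difference was -0.63 ± 0.07, adjusted p = 2.93e-07, and its HC2 minus HC1 difference 0.81 ± 0.09, adjusted p = 2.77e-06.

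Insig1 and Insig2 retain the SREBP and Scap complex. Insig1 was at 129, 87.2 and 142 RPKM in the SVZ knockouts and 112, 130.2 and 108 in the SVZ wild types, and at 105, 112 and 115.8 in the HC1 knockouts and 91.3, 114 and 84.5 in the HC1 wild types. In HC2, Insig1 was at 191, 109, 216 and 71.2 RPKM in knockout and 185, 136, 121 and 169.9 in wild-type libraries. Insig1 spread most in HC2, where knockout 7 was highest and knockout 8 lowest. Insig2 was at 16.9, 17.8 and 15.7 RPKM in the SVZ knockouts and 18.2, 19.1 and 18.7 in the SVZ wild types, and at 19.97, 18.5 and 23.9 in the HC1 knockouts and 20.1, 20.2 and 18.5 in the HC1 wild types. In HC2, Insig2 was at 15.4, 27.2, 14.99 and 19.7 RPKM in knockout and 15.9, 16.2, 12.8 and 16.5 in wild-type libraries. Neither passed between sets (-0.28 ± 0.20 and 0.06 ± 0.11 for SVZ minus HC2, adjusted p = 0.227 and 0.648). Stard4 carries sterol between membranes. Stard4 was at 69.1, 41.3 and 68.6 RPKM in the SVZ knockouts and 80.3, 69.7 and 65.4 in the SVZ wild types, and at 71.7, 67.4 and 78.3 in the HC1 knockouts and 45.1, 62.6 and 53.99 in the HC1 wild types. In HC2, Stard4 was at 36.7, 25.00, 49.4 and 18.8 RPKM in knockout and 36.7, 21.8, 25.7 and 34.3 in wild-type libraries. It was higher in SVZ than HC2 (1.09 ± 0.19, adjusted p = 7.16e-05) and lower in HC2 than HC1 (-1.22 ± 0.26, adjusted p = 0.00145).

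Fatty acid enzymes split by step. Acly cleaves citrate to acetyl-CoA, Acaca makes malonyl-CoA and Fasn assembles palmitate. Acly was at 291, 263 and 286 RPKM in the SVZ knockouts and 263, 271 and 287 in the SVZ wild types, and at 201, 221 and 245 in the HC1 knockouts and 193, 215 and 201 in the HC1 wild types. In HC2, Acly was at 231, 160.3, 262 and 119 RPKM in knockout and 255, 152, 153 and 166 in wild-type libraries. Acly was higher in SVZ than HC2 (0.61 ± 0.15, adjusted p = 0.00194) without overlap, by a narrow gap. Acaca was at 23.3, 24.7 and 21.1 RPKM in the SVZ knockouts and 22.5, 23.3 and 21.9 in the SVZ wild types, and at 23.7, 20.6 and 23.7 in the HC1 knockouts and 20.5, 21.1 and 25.4 in the HC1 wild types. In HC2, Acaca was at 14.4, 11.8, 13.9 and 10.5 RPKM in knockout and 14.5, 12.8, 13.5 and 12.1 in wild-type libraries. Acaca was low in level and separated HC2 from all other libraries (0.78 ± 0.08, adjusted p = 2.16e-07, and -0.80 ± 0.11, adjusted p = 2.39e-05). Fasn was at 255, 228 and 207 RPKM in the SVZ knockouts and 215, 233 and 242 in the SVZ wild types, and at 189, 205 and 205 in the HC1 knockouts and 181, 176 and 199 in the HC1 wild types. In HC2, Fasn was at 272, 178, 257 and 159 RPKM in knockout and 262, 186, 207 and 216 in wild-type libraries. Fasn overlapped between SVZ and HC2 (0.10 ± 0.11, adjusted p = 0.433) and between HC1 and HC2, while its 6 SVZ libraries lay above its 6 HC1 libraries. The SVZ minus HC1 difference in knockouts did not pass (0.20 ± 0.17, adjusted p = 0.5).

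Elovl6 lengthens palmitate, and the stearoyl-CoA desaturases Scd1 and Scd2 add the first double bond. Elovl6 was at 68.2, 61.8 and 63.5 RPKM in the SVZ knockouts and 67.2, 70.3 and 63.4 in the SVZ wild types, and at 54.6, 59.7 and 62.98 in the HC1 knockouts and 34.1, 54.02 and 51.4 in the HC1 wild types. In HC2, Elovl6 was at 37.4, 19.9, 43.9 and 13.1 RPKM in knockout and 41.4, 19.5, 20.1 and 23.4 in wild-type libraries. Elovl6 was higher in SVZ than HC2 without overlap (1.34 ± 0.23, adjusted p = 6.08e-05) and lower in HC2 than HC1 (-1.17 ± 0.32, adjusted p = 0.0078). Scd1 was at 363, 255 and 394 RPKM in the SVZ knockouts and 406, 361 and 319 in the SVZ wild types, and at 403, 477 and 439 in the HC1 knockouts and 285, 426 and 311 in the HC1 wild types. In HC2, Scd1 was at 346, 254, 399.7 and 221 RPKM in knockout and 313, 284, 257 and 361 in wild-type libraries. Scd1 was lower in HC2 than HC1 knockouts (-0.56 ± 0.20, adjusted p = 0.037). Scd2 was at 1533, 1101 and 1724 RPKM in the SVZ knockouts and 1787, 1608 and 1540.4 in the SVZ wild types, and at 2055, 2161 and 2062 in the HC1 knockouts and 1939, 2209.7 and 1893 in the HC1 wild types. In HC2, Scd2 was at 1606, 1712, 1774 and 1597 RPKM in knockout and 1596, 2064, 1907 and 1949 in wild-type libraries. Scd2 had the highest median RPKM of the 33 genes and was the only one that differed between SVZ and HC1 knockouts (-0.55 ± 0.14, limma, adjusted p = 0.0304). That call was lost without the library labelled SVZ knockout 2, where Scd2 was lowest, and also when SVZ knockout 1 or any of the 3 HC1 knockouts was left out.

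Fads1 and Fads2 desaturate polyunsaturated fatty acids, and ran against most of the other enzymes. Fads1 was at 175, 147 and 193 RPKM in the SVZ knockouts and 205, 190.0 and 205 in the SVZ wild types, and at 201, 194 and 209 in the HC1 knockouts and 209, 210.1 and 189.6 in the HC1 wild types. In HC2, Fads1 was at 269, 337, 329 and 331 RPKM in knockout and 255, 456, 555 and 391 in wild-type libraries. Fads1 was higher in every HC2 library than in every other (-0.94 ± 0.13, adjusted p = 7.04e-06, for SVZ minus HC2, and 0.64 ± 0.18, adjusted p = 0.00967, for HC2 minus HC1). Fads2 was at 452, 346 and 467 RPKM in the SVZ knockouts and 561, 467 and 414 in the SVZ wild types, and at 625, 639.8 and 609 in the HC1 knockouts and 692, 607 and 553 in the HC1 wild types. In HC2, Fads2 was at 581, 759.7, 593 and 919 RPKM in knockout and 579, 1178, 1405 and 979.6 in wild-type libraries. Fads2 did not overlap between SVZ and HC2 (-0.89 ± 0.17, adjusted p = 1.59e-04), but HC2 and HC1 knockouts overlapped (0.17 ± 0.23, adjusted p = 0.607). The highest levels of both were in HC2 wild types 3, 5 and 6.

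**Figure D3:**
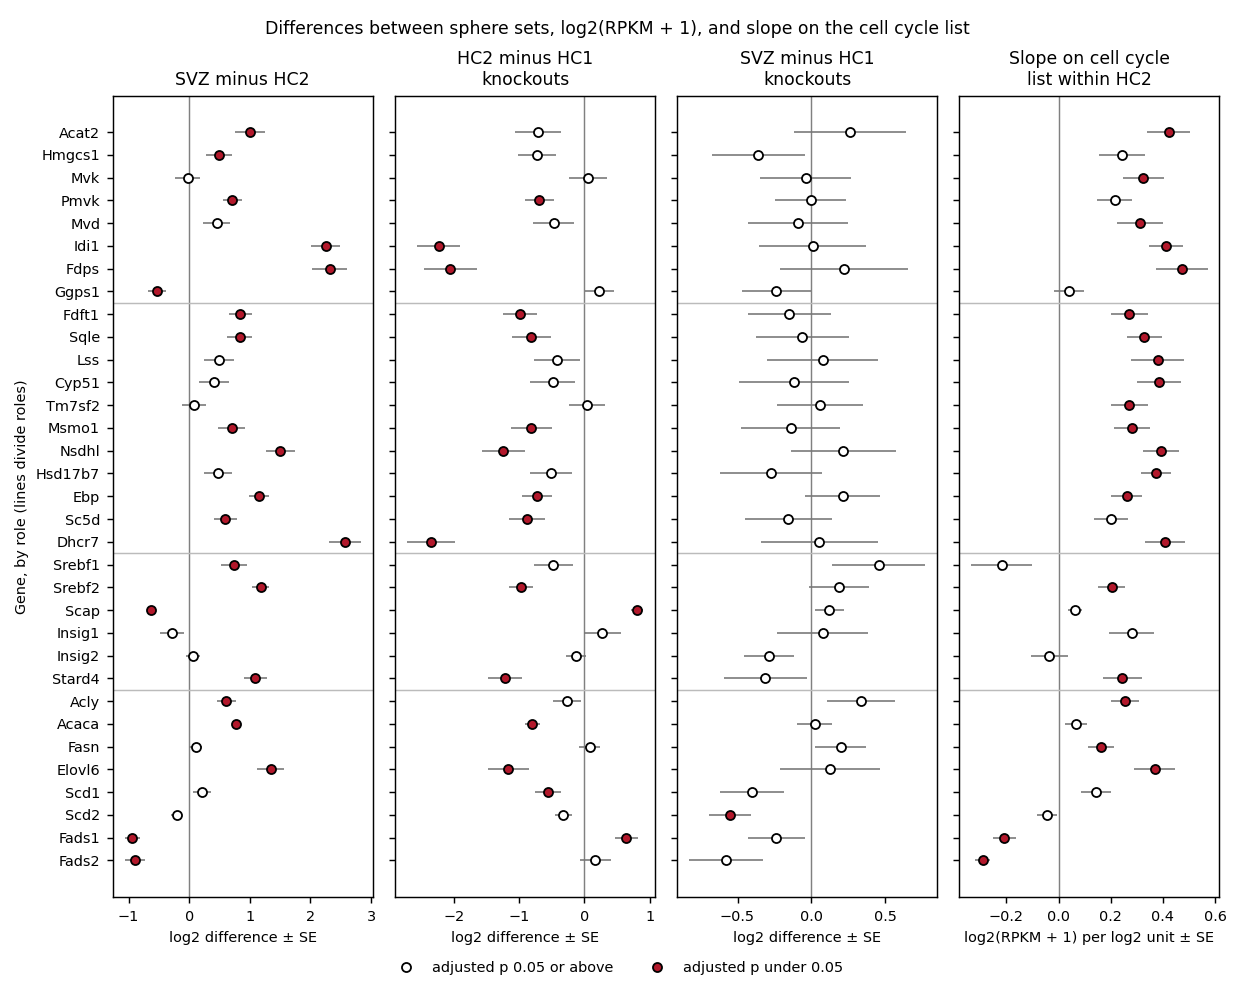
Log2 differences ± SE of the 33 genes between sphere sets, and in the right panel the change in log2(RPKM + 1) per unit of the cell cycle mean within HC2, with filled points for adjusted p under 0.05. Dhcr7, Fdps and Idi1 lie farthest from 0 in the panels with HC2, and Fads1 and Fads2 have the filled points left of 0 in the slope panel.

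Egfl7 knockout and wild-type spheres were compared within each set. None of the 33 genes differed by genotype in the SVZ, HC1 or HC2, where 0.0122%, 0.0122% and 0.0244% of all genes passed. At an unadjusted p under 0.05, 0, 0 and 1 of the 33 genes were found, the last being Fads2 in HC2 (-0.49 ± 0.22, adjusted p = 0.988). Among all 16403 genes, 379, 646 and 644 reached that level. The fit shares 1 estimate of the spread over the 6 groups. With only the groups compared, 1, 3 and 0 of the 33 genes reached it, and with the replicate block 0 in the SVZ and 8 in HC1. The share of all genes at that level was not counted for these 2 alternatives, so no excess can be read from them. In the SVZ 25 of the 33 means were lower in the knockout, with a median of -0.12. The library labelled SVZ knockout 2, one of those that go against their label, was the lowest knockout for 27 genes, and without both such libraries 22 of 33 were lower and the median was -0.06.

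In HC1 32 of 33 means were higher in the knockout, with a median of 0.21, while 45.6% of all genes were higher. The exception was Fads1 (-0.01 ± 0.19). Hsd17b7 (0.65 ± 0.34), Dhcr7 (0.48 ± 0.40), Sqle (0.44 ± 0.32), Cyp51 (0.43 ± 0.37) and Stard4 (0.43 ± 0.28) had the largest differences, all with adjusted p = 0.976. The 3 knockouts lay above the 3 wild types without overlap for 5 of 33 genes (Elovl6, Hsd17b7, Lss, Sqle and Stard4) and below for 0, where 6.63% of all genes lay above and 7.05% below. HC1 wild type 1 was the lowest wild type for 22 genes. It also had the lowest cell cycle mean of HC1 (4.67) and the highest astrocyte mean (7.68). Without it the median was 0.13, and 29 of 33 means were higher. All 31 cell cycle genes had higher means in the HC1 knockout, with a median of 0.46, and none passed. With the cell cycle covariate the median of the 33 genes was 0.10, and 29 of 33 means were higher. The part of the astrocyte list in the HC1 values was not tested, and donor sex cannot be told apart from genotype there.

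In HC2 13 means were higher and 20 lower in the knockout, with a median of -0.03. Srebf1 (-0.56 ± 0.27), Fads2 (-0.49 ± 0.22) and Fads1 (-0.34 ± 0.17) were lowest, and Insig2 (0.28 ± 0.15) was highest. No gene separated the 4 knockouts from the 4 wild types, against 1.13% of all genes. The median turned to 0.25 without HC2 knockout 8, with 27 of 33 means higher. All 31 cell cycle genes had higher means in the HC2 knockout, with a median of 1.28, and none passed. With the cell cycle covariate 32 of the 33 means were lower in the knockout, and the median was -0.28. None passed by limma, where 0.0427% of all genes did. An unadjusted p under 0.05 was found for 12. The share of all genes at that level was not counted for this fit, so no excess can be read from the 12. The knockout effects in HC1 and HC2 were compared directly, and 0 of 33 genes differed (0.0244% of all genes), also at an unadjusted p under 0.05. Their median difference, HC1 minus HC2, was 0.32, and 0.05 without HC2 knockout 8.

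**Figure D4:**
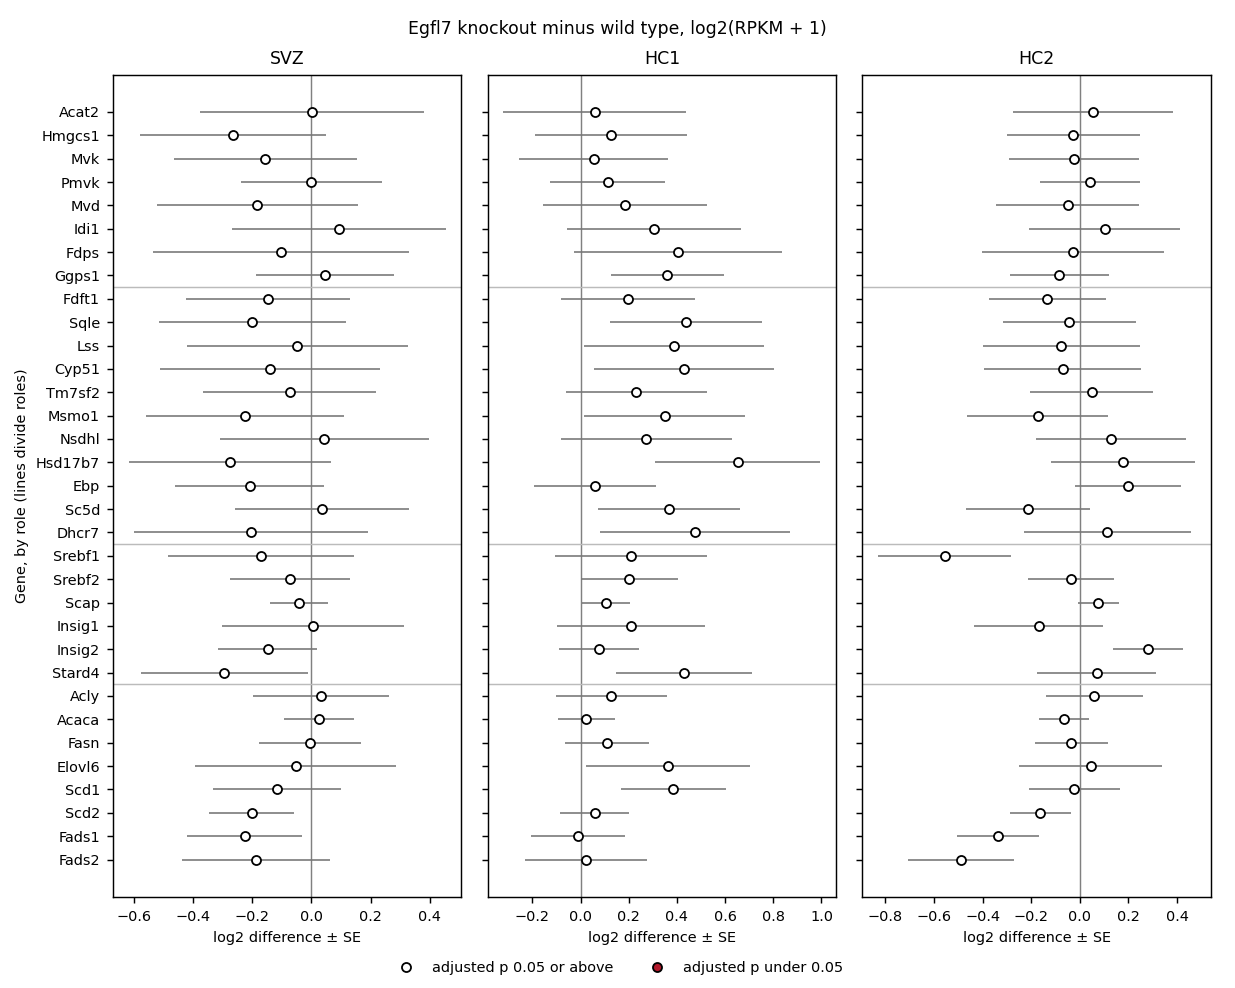
Log2 differences ± SE of the 33 genes, Egfl7 knockout minus wild type, in SVZ, HC1 and HC2. All points are open, since none passed, and in HC1 all but Fads1 lie right of 0.

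Within HC2 the libraries of both genotypes differed widely in the cell cycle list, which gave a comparison inside 1 tissue and day. Knockouts 1 and 7 and wild type 2 had means of 5.57, 5.65 and 5.89, and knockouts 4 and 8 and wild types 3, 5 and 6 had 3.90, 3.43, 2.63, 1.58 and 3.59. Each gene's log2(RPKM + 1) was fitted on that mean with a term for genotype. At an adjusted p under 0.05, 20 of 33 genes passed with a slope above 0 (60.6%, against 15.4% of all genes) and 2 with a slope below 0 (6.06%, against 7.92%). With or without passing, 28 slopes were above 0 and 5 below. The median slope was 0.26 over the 33 genes and 0.01 over all genes. A slope of 0.26 means that the level changes by 0.26 on the log2 scale when the cell cycle mean changes by 1. Without HC2 wild type 2 the number that passed was 10, where 4.51% of all genes passed, and the median was 0.40.

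All 11 sterol enzymes had slopes above 0, and 10 of them passed, where 15.4% of all genes passed with a slope above 0. The largest were those of Dhcr7 (0.41 ± 0.08, adjusted p = 0.00876), Nsdhl (0.39 ± 0.07, adjusted p = 0.00684) and Cyp51 (0.39 ± 0.08, adjusted p = 0.0156). Sc5d did not pass (0.20 ± 0.07, adjusted p = 0.0615). Of the mevalonate and isoprenoid enzymes 5 of 8 passed, Fdps (0.47 ± 0.10, adjusted p = 0.0144), Acat2 (0.42 ± 0.08, adjusted p = 0.0101) and Idi1 (0.41 ± 0.07, adjusted p = 0.00461) with the steepest. Hmgcs1, Pmvk and Ggps1 did not pass. Of the regulators and carriers, Srebf2 (0.20 ± 0.05, adjusted p = 0.0252) and Stard4 (0.24 ± 0.08, adjusted p = 0.0498) passed, and Srebf1 had a value of opposite sign that did not (-0.22 ± 0.12, adjusted p = 0.214). Among fatty acid enzymes Elovl6 (0.37 ± 0.08, adjusted p = 0.0139), Acly (0.25 ± 0.05, adjusted p = 0.0138) and Fasn (0.16 ± 0.05, adjusted p = 0.0459) passed with slopes above 0. Fads1 (-0.21 ± 0.04, adjusted p = 0.0125) and Fads2 (-0.29 ± 0.03, adjusted p = 5.56e-04) passed with slopes below 0.

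The points were not evenly spread. The 3 libraries of high cell cycle mean stood apart from the other 5, and these groups are too small for a relation within either. Among the 5, HC2 knockout 8 was the lowest of all 8 libraries for 25 of the 33 genes, although its cell cycle mean was above those of wild types 3 and 5. HC2 knockout 7 was the highest of the 8 for 19 genes and wild type 2 for 6. The astrocyte list ran against the cell cycle list in HC2, with 6.33, 6.53 and 5.85 in the 3 libraries and 7.71, 8.46, 8.18, 8.58 and 7.85 in the other 5. HC2 knockout 8 had an estimated 20300000 reads and knockout 7 had 17700000, against 25600000 to 28700000 in the other HC2 libraries. The part of depth in the low values of knockout 8 was not tested. The part of astrocyte content in these slopes was not tested.

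**Figure D5:**
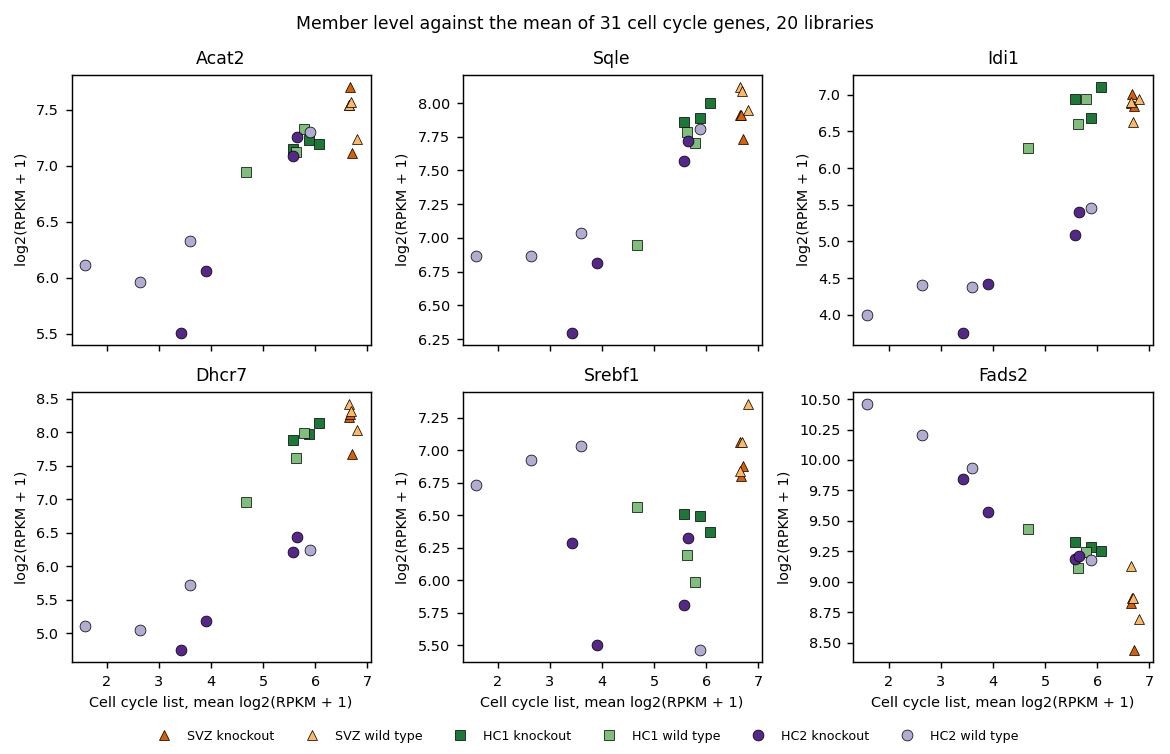
Level of 6 genes, as log2(RPKM + 1), against the mean log2(RPKM + 1) of 31 cell cycle genes, 1 point per library with symbols by set and genotype. All HC2 points of Idi1 and Dhcr7 lie below all SVZ and HC1 points, also where the cell cycle means of HC2 and HC1 libraries meet (the 3 HC2 libraries at 5.57 to 5.89), the highest HC2 points of Acat2 and Sqle reach the SVZ and HC1 points, and Fads2 falls from left to right within HC2.

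Related genes outside the 33 were read from 3 lists. Of 22 other fatty acid synthesis genes tested, 7 were higher in SVZ than in HC2 (31.8%, against 34.7% of all genes) and 5 lower (22.7%, against 32.6%), with a median of 0.11, so neither share is above the background. Me1, the cytosolic malic enzyme that supplies NADPH, was higher (1.77 ± 0.11, adjusted p = 3.84e-10), as were the elongase Elovl1 (1.07 ± 0.10) and the acyl-CoA synthetase Acsl4 (1.31 ± 0.19). Acsl6 (-0.95 ± 0.14), Fads6 (-0.95 ± 0.14) and Thrsp (-1.64 ± 0.35) were lower. Me1 was also lower in HC2 than in HC1 knockouts (-1.92 ± 0.15, adjusted p = 3.97e-08). Its group means were 74.0 and 70.8 RPKM in the SVZ, 78.5 and 82.7 in HC1, and 20.2 and 20.9 in HC2.

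Of 21 other isoprenoid and SREBP genes, 11 were higher in SVZ than in HC2 (52.4%, against 34.7% of all genes) and 4 lower (19.0%, against 32.6%), with a median of 0.27. Fntb, a farnesyltransferase subunit (0.98 ± 0.10), Mbtps2, the protease of the second cut that frees SREBP (0.95 ± 0.12), and Rabggtb (0.80 ± 0.10) were higher. Rabggta (-0.90 ± 0.14) and Pggt1b (-0.38 ± 0.07) were lower. Of 14 genes of sterol export and turnover, 10 were lower in SVZ than in HC2 (71.4%) and 2 higher (14.3%), with a median of -0.63. Abca1, which exports cholesterol, was lower in SVZ (-4.37 ± 0.44, adjusted p = 2.00e-07), with group means of 4.10 and 5.63 RPKM in the SVZ, 25.3 and 44.98 in HC1, and 148 and 154 in HC2. Cyp7b1, an oxysterol hydroxylase (-2.54 ± 0.22), and Lrp1, a lipoprotein receptor (-1.90 ± 0.18), were lower too. Scarb1 (1.88 ± 0.32) and Osbp (0.21 ± 0.05) were higher. Within HC2, Abca1 had a slope on the cell cycle mean of -0.74 ± 0.12 (adjusted p = 0.00613) and Scarb1 one of 0.57 ± 0.08 (adjusted p = 0.00301). No gene of the 3 lists differed by genotype in any set by limma.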

How the data were processed

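Per the labels' protocols, Trizol RNA was cleared of ribosomal RNA, turned into strand-specific libraries, captured with mouse exon baits and sequenced on a NovaSeq. The submitters' processing notes name FastQC 0.11.5, DESeq2 and the build mm10 (GRCm38). The sources used here do not give the aligner, the counter, the gene lengths or the handling of reads that match several genes. Values are the authors' deposited linear total RPKM for 36724 genes, a normalized unit with decimal commas, so no count model was run, and blanks were read as 0. Acat2 has a near copy, Acat3 (26.1 to 126 RPKM), and Scd1 and Scd2 have Scd3 (20.5 to 228) and Scd4 (21.4 to 58.2), so reads may be shared and those levels are uncertain. These copies were chosen after their values were seen.

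Genes reaching 0.5 RPKM in 3 or more of 20 libraries were kept (16403). limma 3.58.1 in R 4.3.3 was fitted on log2(RPKM + 1) with 1 mean for each of 6 groups and 14 residual degrees of freedom (trend, robust), and p-values were two-sided and adjusted by Benjamini and Hochberg over all kept genes with a threshold of 0.05. A fold change on this scale understates that of low genes. The cell cycle slope used the 8 HC2 libraries with a genotype term (5 residual degrees of freedom). The scripts were tested on simulated data. Depth was estimated from the lowest RPKM times length over 1244 intronless genes, since RPKM carry no depth of their own. Mouse numbers recur between some sets, and libraries were treated as independent. The labels do not say whether spheres of 1 mouse were pooled from several cultures, so p-values measure the spread between these libraries. The 33 genes, the lists and the tests were chosen with earlier results of these data known. Values in every library are given for all 33 genes, for related lists the called genes of smallest p, at most 3 per direction, and others where a result turns on them. A gene that this rule names is not reported here. Alternatives were another pseudocount, other filters, rescaling, plain limma, array weights, fits of only the groups compared, a replicate block, a cell cycle covariate and leaving out each library. Rescaling to the same RPKM sum was added after seeing the data. Protein sequences were not used here.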

Additional observations from a re-analysis of the deposited data

Results flagged for a closer look

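In the 2 HC2 groups of 4 libraries, 3 of 66 gene and group combinations had 1 library farther from the others on the log2 scale than Dixon's test allows, and chance gives about 1 in 20. Fads1 in HC2 knockout 1 was low (gap 0.896 of the range), Insig2 in HC2 wild type 5 was low (0.843), and Acly in HC2 wild type 2 was high (0.837). Sqle was higher in all HC1 knockouts than in all HC1 wild types and lower in all SVZ knockouts than in all SVZ wild types. The knockout effects of Sqle in the 2 sets differed by 0.64 on the log2 scale, a difference that was not tested, and 2 SVZ libraries go against their labels.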

How the results depend on the processing

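No gene of the 33 was called between genotypes in the SVZ, HC1 or HC2, or between the HC1 and HC2 effects, under any alternative run. Same-numbered knockout and wild-type libraries did not deviate together (correlations of 0.00726, -0.0625 and -0.259 in the SVZ and -0.047, -0.115 and -0.0286 in HC1), so the numbers were not taken as pairs. With the replicate block 0 genes were called in the SVZ and 0 in HC1, and HC2 groups share no number. For SVZ minus HC2, 13 of the 33 genes and 42.1% of all genes were called with the cell cycle covariate. In that fit Acat2 turned to -0.092, Hmgcs1 to -0.070, Sqle to -0.093, Msmo1 to -0.14, Sc5d to -0.021 and Acly to -0.044. Leaving out 1 library gave 21 to 26 of the 33, and 63.7% to 68.8% of all genes. For SVZ minus HC1 knockouts, the count was 0 after rescaling by median ratio and without the SVZ library against its label. It was 2 with only the groups compared (20.4% of all genes), 4 with array weights (31%) and 4 over both genotypes (34.1%). With 1 library left out it was 0 to 1. For HC2 minus HC1 knockouts it was 10 with only the groups compared (31.3% of all genes) and 11 to 19 leaving out 1 library (31.8% to 39.5%). For the slope it was 13 without a filter on low values (10.1% of all genes) and 10 to 23 leaving out 1 library (4.51% to 25.2%). Rescaling to the same RPKM sum moved the median of all genes to 0.16 for SVZ minus HC2 and -0.24 for HC2 minus HC1, and that of the 33 genes to 0.80 and -0.79. Where 1 library was left out, the spread was pooled over the groups. The causes of these changes were not tested. RPKM carry no counting error, so the precision rests on the number of libraries.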
